A study of Drosophila melanogaster with 9 samples.

Results

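The genes described here were grouped as digestive enzymes of the *Drosophila* larval midgut: Jonah serine proteases, trypsins, maltases, alpha-mannosidases, lysozymes and the lipase Magro. They were chosen by the names of their gene families, from the probe sets that the platform's annotation assigns to a single gene. Each gene was read by 1 probe set, and whether each is expressed in the midgut was not measured. In all, 40 genes met the rule, of 11982 genes with a probe set of their own. They comprised 13 Jonah proteases, 9 trypsins, 8 maltases, 6 alpha-mannosidases, 3 lysozymes and the lipase gene *mag*. A current gene table holds 51 genes with such names. The other 11 were not analysed here as members, namely *Jon99Cii*, *Jon99Ciii*, *Jon99Fii*, *gammaTry*, *deltaTry*, *LysB*, *LysC*, *LysD*, *LysE*, *Amy-p* and *Amy-d*. The last pair, the genes for amylase, share a probe set, whose values are given further on.

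RNA from whole larvae of the third instar was measured on 9 Affymetrix Drosophila Genome 2.0 arrays, and every group was of the same *y w* strain, which carries the *yellow* and *white* mutations. The groups were larvae 4 h after pinching with forceps (3 arrays), larvae 4 h after clean injury, that is, pricking with a tungsten needle without microbes (3 arrays), and larvae without treatment (3 arrays). By the study's methods, larvae were washed out of their vials with water before pinching, and pinched larvae were then kept on apple juice agar. The labels give no array of uninjured larvae kept for the same time, so in each comparison with untreated larvae injury cannot be told apart from the hours that passed, from handling or from the new food.

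The larval midgut is the organ of digestion and absorption. Its enterocytes secrete proteases, glycosidases and lipases into the gut lumen, and the output of these enzymes is known to follow the diet. Trypsins cut proteins after lysine or arginine, and the Jonah proteases are chymotrypsin-like relatives of them. Maltases split maltose and related sugars into glucose, and alpha-mannosidases remove mannose from the sugar chains of glycoproteins. The alpha-mannosidase genes are named for the lysosomal enzyme, and where their products act was not measured. Because whole larvae were used, fewer midgut cells and less RNA per midgut cell cannot be told apart in any value below.

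The deposited signals are on a log2 scale, on which a difference of 1 is a 2-fold change. The medians of the 9 arrays lay between 4.94 and 5.08, and the lowest and highest signals of an array lay near 1.60 to 1.69 and 14.2 to 14.4. Groups were compared with limma over 18769 probe sets, and a gene counted as higher or lower where its p, adjusted by Benjamini-Hochberg over all of them, was under 0.05. A signal is compared between groups for the same probe set and never between genes. The p-values measure the spread between the arrays of these groups, which the labels call biological replicates.

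The digestive enzyme genes did not move as a block. The alpha-mannosidases *LManIII*, *LManV* and *LManVI*, the trypsins *lambdaTry*, *kappaTry* and *thetaTry* and the maltases *Mal-A7* and *Mal-A8* were lower after both treatments, whereas the Jonah proteases *Jon65Aii* and *Jon74E* were higher. After pinching, 9 of the 40 genes were called lower than in untreated larvae (22.5%, against 4.99% of all probe sets tested) and 2 were called higher (5%, against 4.21%). After clean injury, 9 were called lower (22.5%, against 4.93% of all probe sets) and 3 were called higher (7.5%, against 5.22%). The share of genes called lower was thus above this background in each comparison, and the share called higher was close to it. Most of the 40 genes are brighter than the array medians, while this background includes dim probe sets. Without the 40% dimmest, 872 of 11261 probe sets were called higher and 990 lower after pinching, and 1056 and 977 after clean injury. These are larger shares than over all probe sets. That fit called 3 of the members higher and 9 lower in each comparison. With the probe sets of each gene averaged, 708 of 11982 genes were called higher and 860 lower after pinching, and 838 and 830 after clean injury. These too are larger shares than over all probe sets. The averaged fit called 2 members higher and 9 lower after pinching, and 3 and 9 after clean injury. In the fit over all 18769 probe sets, the genes called lower in both comparisons numbered 8, those called higher in both numbered 2, and 27 were called in neither. Both comparisons use the same 3 untreated arrays.

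The median change over all 40 genes was -0.06 after pinching and -0.06 after clean injury, beside -0.02 and -0.04 over all probe sets tested. Groups that did not overlap were counted as well. After pinching, all 3 arrays lay below the untreated arrays for 11 genes and above them for 5, where 14.9% and 12.7% of all probe sets did so. After clean injury they lay below for 14 genes and above for 4, where 19.1% and 15.4% of all probe sets did so.

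**Figure D1:**
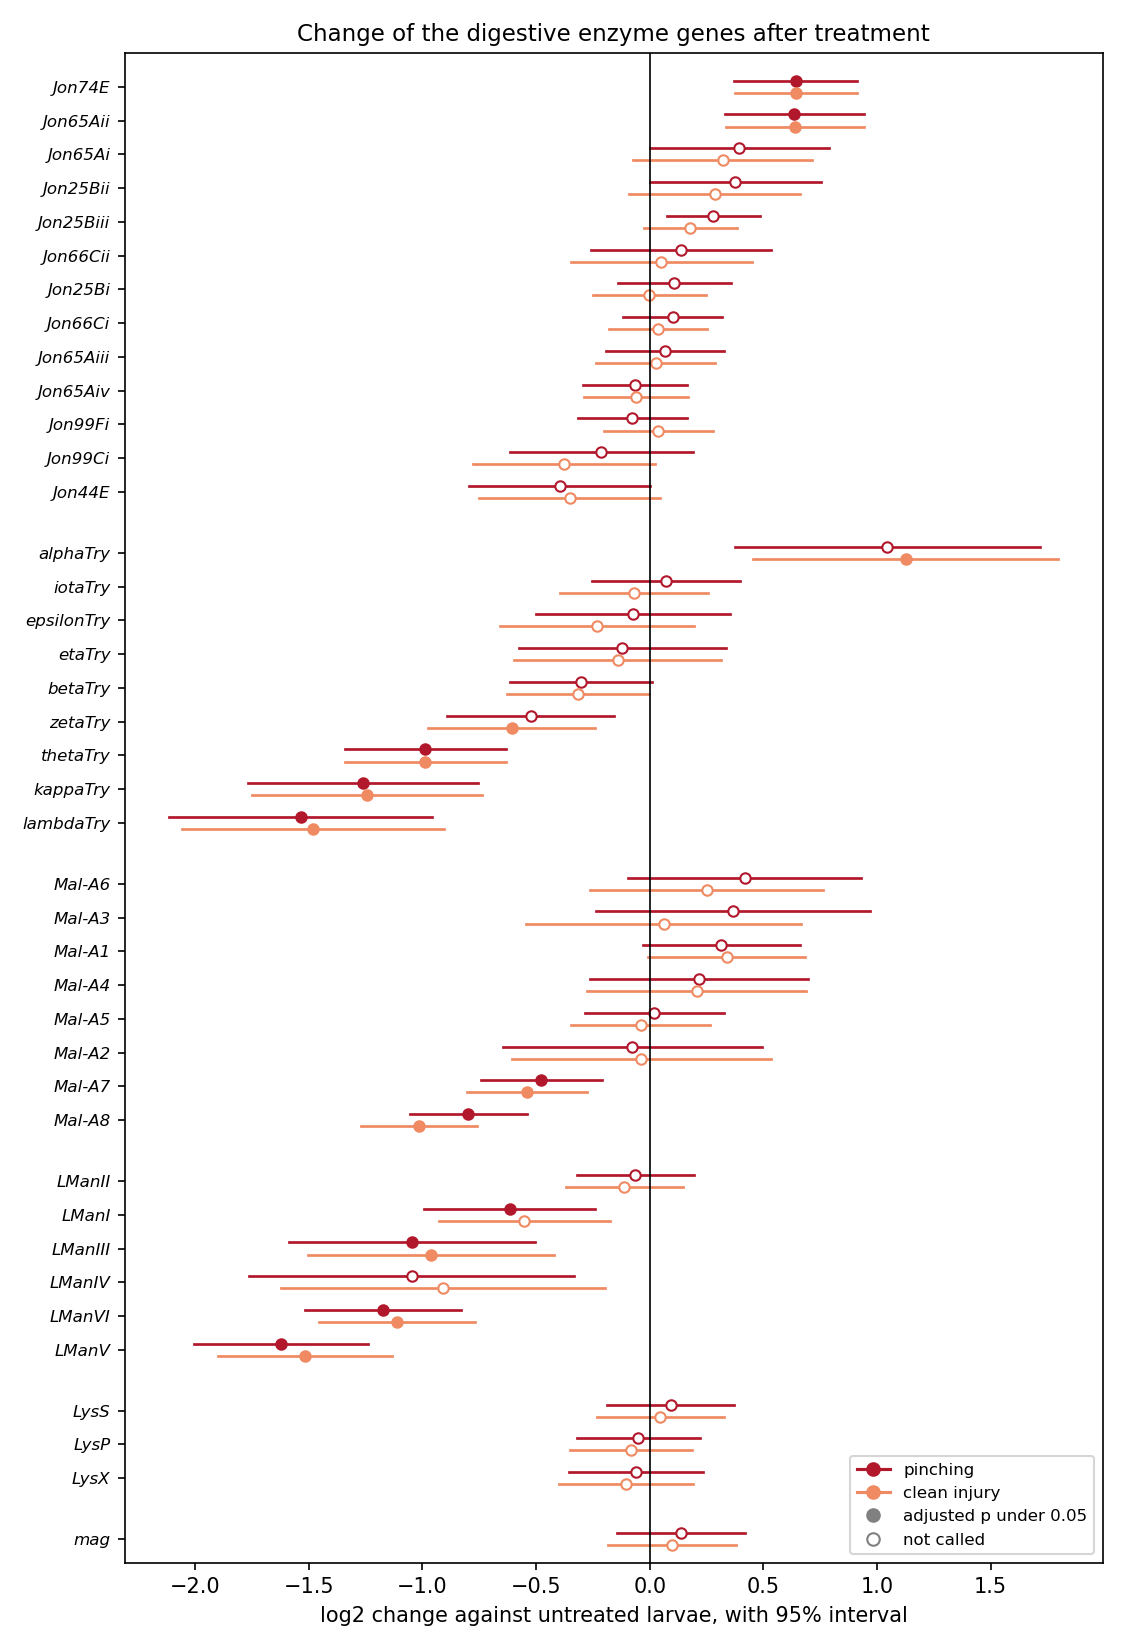
Log2 change of each of the 40 digestive enzyme genes against untreated larvae after pinching and after clean injury (x axis), grouped by enzyme class, with bars for 95% intervals from limma and filled points for an adjusted p under 0.05. The lowest points belong to *LManV* at -1.62 and -1.52, and the highest to *alphaTry* at 1.05 and 1.13, with most Jonah proteases, maltases, lysozymes and *mag* near 0.

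Of the 6 alpha-mannosidases, 4 were called lower after pinching and 3 after clean injury, and none was called higher. The difference was negative for all 6 in each comparison, with a median of -1.05 after pinching and -0.94 after clean injury. *LManV* had signals of 9.55, 9.72 and 10.14 in pinched larvae, 9.72, 9.79 and 10.22 after clean injury, and 11.48, 11.44 and 11.36 in untreated larvae. Every treated array lay more than 1 log2 unit below every untreated array. The change was -1.62 after pinching (SE 0.17, a 3.08-fold lower signal, limma adjusted p = 0.000479) and -1.52 after clean injury (SE 0.17, 2.86-fold, limma adjusted p = 0.000598).

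*LManVI* had signals of 10.12, 9.95 and 10.37 after pinching, 10.23, 9.97 and 10.42 after clean injury, and 11.51, 11.29 and 11.16 in untreated larvae. The treated groups coincided and were separated from the untreated arrays. The change was -1.17 (SE 0.16, limma adjusted p = 0.00148) and -1.11 (SE 0.16, limma adjusted p = 0.00199). *LManIII* had signals of 8.54, 8.99 and 9.33 after pinching, 8.68, 8.87 and 9.56 after clean injury, and 10.17, 9.96 and 9.86 in untreated larvae. Its treated arrays were spread widely, with replicate 3 nearest to the untreated level in each treatment. The change was -1.05 (SE 0.24, limma adjusted p = 0.0241) and -0.96 (SE 0.24, limma adjusted p = 0.0327).

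*LManI* had signals of 6.76, 7.12 and 7.33 after pinching, 6.91, 7.05 and 7.43 after clean injury, and 7.78, 7.62 and 7.65 in untreated larvae. No treated array reached the untreated range, and the change was called after pinching at -0.62 (SE 0.17, limma adjusted p = 0.0478) but not after clean injury at -0.55 (SE 0.17, limma adjusted p = 0.0675). *LManIV*, a dimmer probe set, had signals of 3.90, 4.96 and 5.27 after pinching, 4.51, 4.71 and 5.33 after clean injury, and 5.99, 5.65 and 5.63 in untreated larvae. The groups did not overlap here either, but the changes of -1.05 and -0.91 did not pass the test (SE 0.32, limma adjusted p = 0.0731 and 0.108). The last member, *LManII*, differed by -0.06 and -0.11, with overlapping groups and 95% intervals of -0.32 to 0.19 and -0.37 to 0.14.

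When the replicate number was added to the limma fit as a block, *LManI* after clean injury (adjusted p = 0.0218) and *LManIV* in both comparisons (adjusted p = 0.0229 after pinching and 0.0381 after clean injury) were called lower too. With 1 array left out, *LManV* and *LManVI* were called in all 9 fits. The call of *LManI* after pinching was kept in 2 of 9 fits, those without clean injury replicate 3 and without pinching replicate 3, with adjusted p from 0.0504 to 0.151 in the others. The call of *LManIII* was lost after pinching without untreated replicate 1, untreated replicate 3, pinching replicate 1 or pinching replicate 2 (limma adjusted p from 0.0639 to 0.0973). After clean injury it was lost without any of the untreated arrays, clean injury replicate 1 or clean injury replicate 2 (limma adjusted p from 0.0626 to 0.136).

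The trypsins went in different directions. Of the 9, *lambdaTry*, *kappaTry* and *thetaTry* were lower in both comparisons, *zetaTry* was called lower after clean injury, and *alphaTry* was called higher after clean injury. *lambdaTry* had signals of 6.86, 7.36 and 7.99 after pinching, 7.23, 7.32 and 7.82 after clean injury, and 8.85, 8.80 and 9.16 in untreated larvae. Treated and untreated arrays were fully separated, and the pinched larvae varied most among themselves. The change was -1.54 (SE 0.26, 2.90-fold lower, limma adjusted p = 0.00535) and -1.48 (SE 0.26, 2.79-fold lower, limma adjusted p = 0.00614).

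*kappaTry*, its direct neighbour on the chromosome, showed the same order of arrays within each treated group. Its signals were 6.82, 7.26 and 7.80 after pinching, 7.12, 7.18 and 7.64 after clean injury, and 8.63, 8.41 and 8.62 in untreated larvae. The change was -1.26 (SE 0.23, limma adjusted p = 0.00733) after pinching and -1.24 (SE 0.23, limma adjusted p = 0.00787) after clean injury. *thetaTry* had signals of 10.06, 10.26 and 10.49 after pinching, 10.33, 9.99 and 10.48 after clean injury, and 11.10, 11.43 and 11.23 in untreated larvae. Its mean fell to a like level in the treated groups, and the change was -0.99 in each comparison (SE 0.16, 1.98-fold lower, limma adjusted p = 0.00435 after pinching and 0.00419 after clean injury).

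*zetaTry* had signals of 9.72, 9.999 and 10.35 after pinching, 9.91, 9.77 and 10.15 after clean injury, and 10.46, 10.68 and 10.50 in untreated larvae. The highest pinched array came close to the lowest untreated array without reaching it. The change was called after clean injury at -0.61 (SE 0.17, limma adjusted p = 0.0444) and was -0.52 after pinching (SE 0.17, limma adjusted p = 0.0817, and 0.0300 with the replicate block).

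*alphaTry* was the only trypsin gene called higher. It had signals of 10.68, 11.24 and 10.47 after pinching, 11.15, 11.12 and 10.36 after clean injury, and 9.14, 10.14 and 9.97 in untreated larvae. Untreated replicate 1 was about 0.8 below the other untreated arrays, and no treated array fell into the untreated range. The change was called after clean injury at 1.13 (SE 0.30, 2.18-fold higher, limma adjusted p = 0.0412) and was 1.05 after pinching (SE 0.30, 2.06-fold, limma adjusted p = 0.0581, and 0.0134 with the replicate block).

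The other trypsins, *betaTry*, *epsilonTry*, *etaTry* and *iotaTry*, were called in neither comparison, with changes of -0.30, -0.07, -0.12 and 0.07 after pinching and -0.32, -0.23, -0.14 and -0.07 after clean injury. The trypsin genes are close relatives, and the array's names mark each of these probe sets as designed for a single gene. With 1 array left out, *lambdaTry*, *kappaTry* and *thetaTry* were called in all 9 fits. The call of *alphaTry* after clean injury was lost without untreated replicates 1 or 3 or clean injury replicates 1 or 2 (limma adjusted p from 0.0851 to 0.165). That of *zetaTry* was kept in 3 fits, and was lost without any of the untreated arrays, clean injury replicates 1 or 2 or pinching replicate 2 (limma adjusted p from 0.0627 to 0.184).

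**Figure D2:**
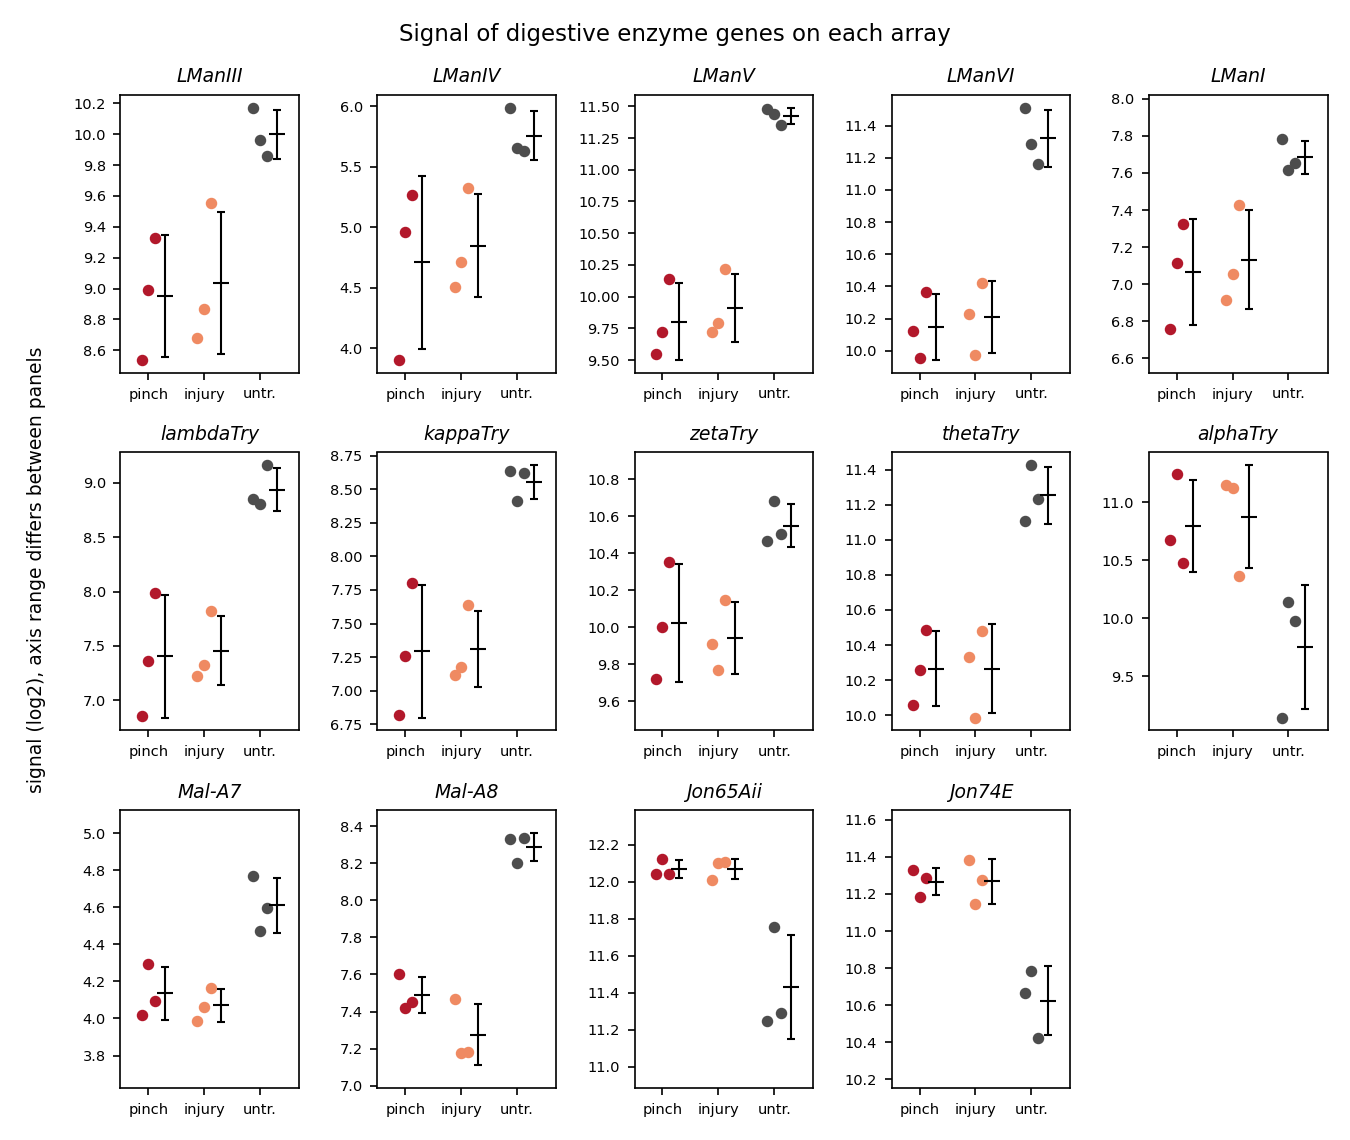
Log2 signal on each array (y axis, own range in each panel) of the 13 digestive enzyme genes called in at least 1 comparison and of *LManIV*, in pinched, clean-injured and untreated larvae from left to right, with bars for the mean ± SD of 3 arrays. For *LManV* the treated arrays lie between 9.55 and 10.22 and the untreated ones between 11.36 and 11.48, and in every panel the treated arrays lie on 1 side of the untreated arrays.

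Of the 8 maltases, *Mal-A7* and *Mal-A8* were lower in both comparisons and the other 6 were not called. *Mal-A8* had signals of 7.60, 7.42 and 7.45 after pinching, 7.47, 7.18 and 7.18 after clean injury, and 8.33, 8.20 and 8.34 in untreated larvae. The arrays of each group lay close together, and the treated arrays were all about 0.6 or more below the untreated ones. The change was -0.80 after pinching (SE 0.12, 1.74-fold lower, limma adjusted p = 0.00232) and -1.01 after clean injury (SE 0.12, 2.02-fold lower, limma adjusted p = 0.000598).

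*Mal-A7*, whose probe set was dim, had signals of 4.02, 4.29 and 4.10 after pinching, 3.99, 4.06 and 4.16 after clean injury, and 4.77, 4.47 and 4.60 in untreated larvae. The gap between the highest pinched and the lowest untreated array was small. The change was -0.48 (SE 0.12, limma adjusted p = 0.0332) and -0.54 (SE 0.12, limma adjusted p = 0.0185). The calls of *Mal-A8* were kept in all 9 fits that left out an array. Those of *Mal-A7* were lost after pinching without untreated replicates 1 or 3, pinching replicates 1 or 3 or clean injury replicate 2 (limma adjusted p from 0.0615 to 0.121). They were lost after clean injury without untreated replicates 1 or 3 or clean injury replicates 1 or 2 (limma adjusted p from 0.0655 to 0.0809). The changes of *Mal-A1*, *Mal-A2*, *Mal-A3*, *Mal-A4*, *Mal-A5* and *Mal-A6* lay between -0.08 and 0.42 after pinching and between -0.04 and 0.34 after clean injury, with groups that overlapped in both comparisons.

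The Jonah proteases were mostly at like levels in all groups. *Jon65Aii* and *Jon74E* were called higher in both comparisons, no member was called lower, and the median change of the 13 genes was 0.11 after pinching and 0.04 after clean injury. *Jon65Aii* had signals of 12.04, 12.12 and 12.04 after pinching, 12.01, 12.10 and 12.11 after clean injury, and 11.25, 11.76 and 11.29 in untreated larvae. The 6 treated arrays were nearly equal, and untreated replicate 2 was the nearest to them. The change was 0.64 in each comparison (SE 0.14, 1.56-fold higher, limma adjusted p = 0.0173 after pinching and 0.0164 after clean injury).

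*Jon74E* had signals of 11.33, 11.19 and 11.29 after pinching, 11.38, 11.14 and 11.28 after clean injury, and 10.66, 10.79 and 10.42 in untreated larvae. The groups were separated by more than 0.3. The change was again 0.64 in each comparison (SE 0.12, 1.56-fold higher, limma adjusted p = 0.00908 and 0.00897), and it was called in all 9 fits that left out an array. The calls of *Jon65Aii* were lost without untreated replicates 1 or 3 in each comparison, and without pinching replicate 2 or clean injury replicate 2 in the comparison that array belongs to. Its limma adjusted p was then 0.0630 to 0.0815 after pinching and 0.0690 to 0.0774 after clean injury.

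The other 11 Jonah proteases, *Jon25Bi*, *Jon25Bii*, *Jon25Biii*, *Jon44E*, *Jon65Ai*, *Jon65Aiii*, *Jon65Aiv*, *Jon66Ci*, *Jon66Cii*, *Jon99Ci* and *Jon99Fi*, had differences of -0.40 to 0.39 after pinching and of -0.38 to 0.32 after clean injury that did not pass the test. Their 95% intervals reached from -0.79 to 0.79 and from -0.78 to 0.72, so a 2-fold change in signal lay outside the interval of each. *Jon25Biii* came nearest to a call, with signals of 13.52, 13.55 and 13.58 after pinching, 13.42, 13.39 and 13.52 after clean injury, and 13.27, 13.25 and 13.29 in untreated larvae. Its arrays were tightly grouped, and the change of 0.28 after pinching did not pass (SE 0.09, limma adjusted p = 0.0930). *Jon44E* was at the lower end with -0.40 after pinching and -0.35 after clean injury, and its untreated arrays were spread from 11.14 to 11.91. The signals of *Jon65Aiii*, *Jon65Aiv* and *Jon66Ci* lay between 13.35 and 13.96 on all arrays, near the upper end of the scale. Whether signals so high still follow the amount of RNA in proportion was not tested.

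The lysozymes split the cell wall of bacteria, and the Lys genes of *Drosophila* are expressed along the digestive tract. None of the 3 was called. *LysS* had signals of 12.90, 12.82 and 12.90 after pinching, 13.00, 12.66 and 12.83 after clean injury, and 12.73, 12.97 and 12.64 in untreated larvae, and its groups overlapped, with changes of 0.09 and 0.05 (limma adjusted p = 0.703 and 0.843). *LysX* differed by -0.06 and -0.10, and *LysP* by -0.05 and -0.08. The probe sets of *LysX* and *LysP* had signals of 3.99 to 4.53 and of 2.60 to 2.95, in the dim part of the scale, where a difference cannot be read with confidence.

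*mag* encodes a lipase of the gut that digests dietary lipids. It had signals of 12.56, 12.72 and 12.80 after pinching, 12.64, 12.60 and 12.72 after clean injury, and 12.31, 12.71 and 12.64 in untreated larvae. The groups overlapped, and the changes of 0.14 (95% interval -0.14 to 0.42, limma adjusted p = 0.554) and 0.10 (-0.18 to 0.38, limma adjusted p = 0.655) did not pass the test.

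Many of the digestive enzyme genes are neighbours on the chromosomes. In RefSeq annotation of the assembly Release 6 plus ISO1 MT, 33 of the 40 genes stand in 8 groups of members with 0 other protein-coding genes between them. *LManIII*, *LManIV*, *LManV* and *LManVI* form a group, and the differences of its 4 genes ran from -1.62 to -1.05 after pinching and from -1.52 to -0.91 after clean injury. *LManI* and *LManII* form another, in which *LManI* had the lower values. The 8 maltases stand in the order *Mal-A1* to *Mal-A8*, and the genes called lower, *Mal-A7* and *Mal-A8*, are the last ones at 1 end.

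The trypsin group runs *lambdaTry*, *kappaTry*, *zetaTry*, *etaTry*, *thetaTry*, *alphaTry*, *epsilonTry*, *betaTry*. Its first 3 genes and *thetaTry* were those called lower in at least 1 comparison, and *alphaTry*, the neighbour of *thetaTry*, had the highest change of all members. Direct neighbours could therefore differ by about 2 log2 units, as *thetaTry* (-0.99) and *alphaTry* (1.05) did after pinching. In the Jonah group *Jon65Aiv*, *Jon65Aiii*, *Jon65Aii*, *Jon65Ai*, the changes after pinching were -0.06, 0.07, 0.64 and 0.39. The groups *Jon25Biii*, *Jon25Bii*, *Jon25Bi*, then *Jon66Ci*, *Jon66Cii*, and *LysP*, *LysS* held no called gene.

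**Figure D3:**
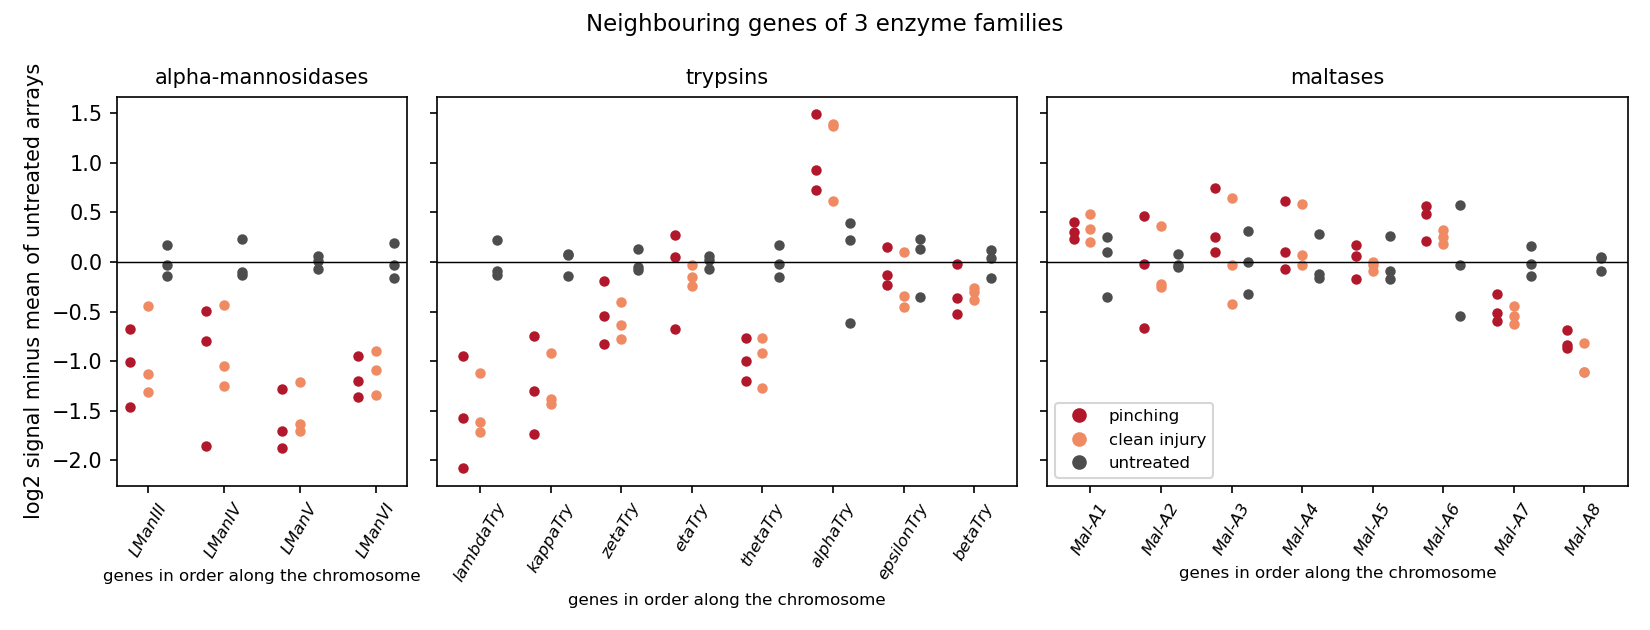
Log2 signal of each array minus the mean of the untreated arrays (y axis) for neighbouring alpha-mannosidase, trypsin and maltase genes, in their order along the chromosome (x axis, not to scale), with 1 point per array for pinched, clean-injured and untreated larvae. All treated arrays of *LManIII* to *LManVI* lie below 0, those of *alphaTry* lie above 0, and among the maltases those of *Mal-A7* and *Mal-A8* lie below the untreated arrays.

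Pinching and clean injury were then compared with each other. For the 40 genes, 0 were called higher and 0 lower in pinched larvae, and 0 of them had an unadjusted limma p under 0.05. Of all probe sets, 0% were called higher and 0.00533% lower, so the genes were read against a background of nearly no calls. The differences lay between -0.14 and 0.30 on the log2 scale, and the smallest unadjusted p over all 9 arrays was 0.0894, for *Mal-A8* (limma). All 40 intervals of 95% lay within 1 log2 unit of 0, and 30 of them within 0.5. A 2-fold difference in signal between the treatments thus lay outside the interval of every gene. The groups overlapped for all 40 genes, where 2.36% and 2.83% of all probe sets lay wholly above or below.

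Arrays of the same group differed in a way that many of the lower genes shared. Over the 10 genes called lower in at least 1 comparison, pinching replicate 1 was the lowest pinched array for 8 and pinching replicate 3 the highest for 8. After clean injury, replicate 1 was the lowest for 6 genes and replicate 2 for 4, and replicate 3 was the highest for 9. In untreated larvae, replicate 1 was the highest for 6 of the 10. The median signal over all 40 genes was 9.94, 9.96 and 10.34 on the pinched arrays, 9.90, 9.86 and 10.22 on the clean-injured arrays, and 10.32, 10.41 and 10.20 on the untreated arrays. By this median, pinching replicate 3 and clean injury replicate 3 lay within the range of the untreated arrays, and the other treated arrays lay below it.

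The shared probe set of *Amy-p* and *Amy-d*, which encode the amylase that breaks starch into maltose, was higher in treated larvae. Its signals were 12.80, 12.63 and 12.58 after pinching, 12.62, 12.51 and 12.56 after clean injury, and 10.88, 11.63 and 10.79 in untreated larvae. The treated arrays were close to each other, and each was well above all untreated arrays. The change was 1.57 (SE 0.19, 2.97-fold higher, limma adjusted p = 0.00108) and 1.46 (SE 0.19, 2.76-fold higher, limma adjusted p = 0.00147), opposite in sign to the lower maltases *Mal-A7* and *Mal-A8*. The 2 genes cannot be told apart on this probe set.

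Among 16 measured of 18 other digestive enzyme genes, outside the families above, 6 were called higher and 1 lower after pinching, and 7 higher and 0 lower after clean injury, with a median change of 0.31 and 0.38. After clean injury, 9 of the 16 were not called. Of all probe sets tested, 4.21% were called higher and 4.99% lower after pinching, and 5.22% and 4.93% after clean injury. This list and those below were drawn up with earlier results of these data known, so their counts and medians are a description only. *Amyrel*, an amylase-related gene, had signals of 9.45, 9.72 and 9.69 after pinching, 9.35, 9.33 and 9.77 after clean injury, and 6.76, 6.81 and 7.42 in untreated larvae. Its change was 2.62 (SE 0.19, 6.15-fold higher, limma adjusted p = 3.7e-05) and 2.49 (SE 0.19, 5.61-fold higher, limma adjusted p = 5.26e-05). Treated arrays were about 2 log2 units or more above every untreated array.

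*tobi* encodes an alpha-glucosidase, the same kind of enzyme as the maltases, and is known as a target of insulin-producing cells of the brain. It had signals of 8.68, 9.22 and 9.10 after pinching, 8.84, 9.11 and 9.11 after clean injury, and 6.64, 6.32 and 7.74 in untreated larvae. Untreated replicate 3 stood above the other untreated arrays but below all treated ones. The change was 2.10 (SE 0.31, 4.29-fold higher, limma adjusted p = 0.0024) and 2.12 (SE 0.31, 4.35-fold higher, limma adjusted p = 0.00243). *Lip3*, a lipase gene, had signals of 6.47, 7.48 and 7.34 after pinching, 6.30, 6.17 and 6.55 after clean injury, and 3.51, 3.48 and 5.001 in untreated larvae. It was higher in treated larvae (limma adjusted p = 0.00114 and 0.00454), and no fold is given because the untreated signals lie in the dim part of the scale. The maltase gene *Mal-B2*, which lies outside the Mal-A group, rose by 0.70 and 0.82 (SE 0.12, limma adjusted p = 0.00546 and 0.00252).

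The remaining called genes of the list are named with their values already known. The serine protease gene *Phae2* was higher by 0.98 and 1.08 and the aspartic protease gene *cathD* by 1.02 and 1.13 (limma adjusted p of at most 0.00546 in the 4 comparisons). Whether the changes of *cathD*, *tobi* or other genes of this list took place in the gut was not measured. *Bace*, another aspartic protease gene, had signals of 8.99, 8.99 and 8.53 after pinching, 9.37, 9.19 and 8.79 after clean injury, and 6.40, 6.62 and 8.84 in untreated larvae. Untreated replicate 3 stood at the treated level, above clean injury replicate 3. The change was called after clean injury at 1.83 (limma adjusted p = 0.0495) and was 1.56 after pinching (limma adjusted p = 0.0954). Without untreated replicate 3 the changes were 2.61 and 2.33, and both were called. The call after clean injury was lost in each of the other 8 fits that left out an array (limma adjusted p from 0.0588 to 0.175). The serine protease gene *Ser6* was called lower after pinching at -0.99 (limma adjusted p = 0.0338) and was -0.88 after clean injury (limma adjusted p = 0.0519, and 0.00799 with the replicate block). Its call after pinching was lost without untreated replicates 1 or 3, pinching replicates 1 or 2 or clean injury replicate 2 (limma adjusted p from 0.0537 to 0.131). Its change after clean injury was called in the fits without untreated replicate 2, clean injury replicate 3, pinching replicate 1 or pinching replicate 3 (limma adjusted p from 0.0171 to 0.0417).

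**Figure D4:**
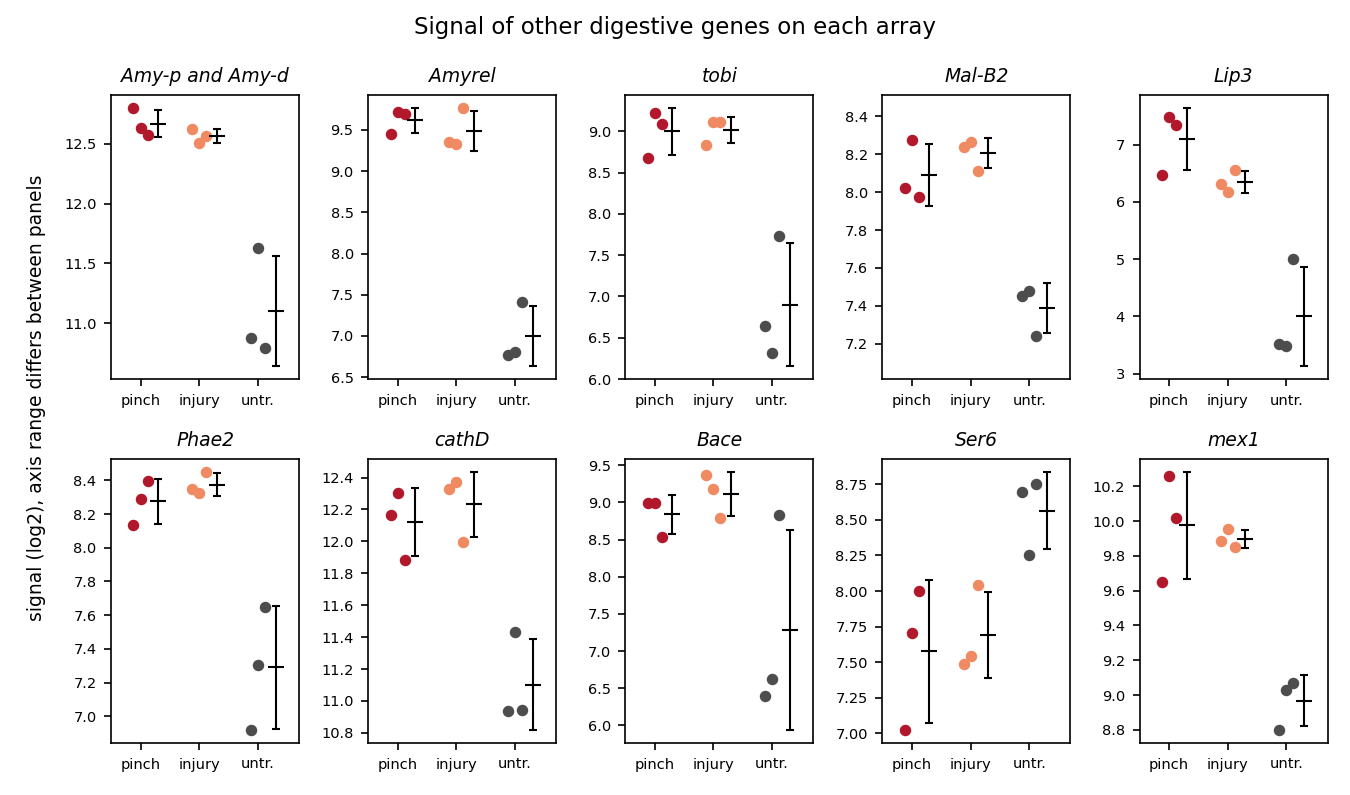
Log2 signal on each array (y axis, own range in each panel) of the shared amylase probe set, the 8 other digestive enzyme genes called in a comparison and the midgut gene *mex1*, in pinched, clean-injured and untreated larvae from left to right, with bars for the mean ± SD of 3 arrays. The means are higher in treated larvae in all panels but that of *Ser6*, and the groups overlap for *Bace*.

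Midgut genes that are not enzymes moved in both directions. Of 12 listed, 8 were measured, 3 were called higher and 1 lower after pinching, and 2 higher and 1 lower after clean injury. Over all probe sets the shares were 4.21% higher and 4.99% lower after pinching, and 5.22% and 4.93% after clean injury. *mex1*, a gene expressed in midgut enterocytes, had signals of 9.65, 10.26 and 10.02 after pinching, 9.89, 9.96 and 9.85 after clean injury, and 8.80, 9.03 and 9.07 in untreated larvae. The treated arrays lay above the untreated ones, with changes of 1.01 and 0.93 (SE 0.15, limma adjusted p = 0.00295 and 0.0044). The mucin-related gene *Mur29B* was higher by 0.64 and 0.57 (limma adjusted p = 0.00549 and 0.00963). *GATAe*, a GATA factor of the endoderm, was called higher after pinching at 0.53 (limma adjusted p = 0.0282) and was 0.37 after clean injury (limma adjusted p = 0.0980). Its call was lost where untreated replicate 1, untreated replicate 3, pinching replicate 2 or pinching replicate 3 was left out (limma adjusted p from 0.0641 to 0.120). *Npc2h*, of a family of lipid-binding proteins, was lower, with changes of -1.64 and -1.73 (SE 0.28, limma adjusted p = 0.00593 and 0.0044).

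The summed signal of these 8 midgut genes ranged over 11.67 to 12.04 on the log2 scale in pinched larvae, 11.66 to 11.85 after clean injury and 11.32 to 11.73 in untreated larvae. Of 6 measured of 8 enteroendocrine peptide genes, 0 were called in either comparison by limma, and *AstC* after pinching had an unadjusted limma p under 0.05, at a change of -0.33 (adjusted p = 0.185).

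Markers of other tissues were read beside these genes. For the fat body (3 measured of 6) the summed signal ranged over 14.78 to 14.97 after pinching, 14.80 to 14.998 after clean injury and 14.66 to 14.94 in untreated larvae. For the salivary glands (6 of 6) it ranged over 14.99 to 15.81, 15.26 to 15.91 and 14.90 to 15.68 in the same groups. For muscle (5 of 8) it ranged over 14.20 to 14.61, 14.10 to 14.51 and 14.36 to 14.60. These 3 lists held no gene called by limma, and in none were the summed signals of the groups apart. At an unadjusted limma p under 0.05, *Sgs4* differed by 0.83 after clean injury, *Mlc2* by -0.50 after clean injury, and *sls* by -0.81 and -0.89 in the 2 comparisons. Of the 6 hemocyte markers, 0 were called after pinching (limma, with *He* and *crq* at an unadjusted p under 0.05). After clean injury *He* was higher by 0.99 (limma adjusted p = 0.00462) and *Pxn* lower by 0.64 (a change of -0.64, limma adjusted p = 0.0154). In that comparison *crq*, at 0.80, and *Hml*, at -0.38, had an unadjusted limma p under 0.05 and were not called. *He* was called after pinching too with the replicate block (0.54, limma adjusted p = 0.0366), and the call of *Pxn* was lost without untreated replicate 1 or clean injury replicate 2 (limma adjusted p = 0.0564 and 0.0834). The summed hemocyte signal ranged over 10.65 to 10.98 after pinching, 10.89 to 11.05 after clean injury and 10.69 to 10.79 in untreated larvae, so that after clean injury it lay above the untreated range. The markers did not rise together, since 3 had a positive and 3 a negative change after clean injury. The part of these tissues in the values of the enzyme genes was not tested.

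Of 12 genes for regulators of the response to nutrients and hormones, 11 were measured, and in each comparison 2 were called higher and 1 lower. Over all probe sets 4.21% were called higher and 4.99% lower after pinching, and 5.22% and 4.93% after clean injury. This list too was drawn up with earlier results known. *Mondo* and *bigmax* encode partner transcription factors that respond to sugars, and they went in opposite directions. *bigmax* had signals of 8.26, 8.46 and 8.57 after pinching, 8.42, 8.33 and 8.39 after clean injury, and 7.77, 7.75 and 7.47 in untreated larvae, and was higher by 0.77 and 0.71 (SE 0.12, limma adjusted p = 0.00399 and 0.00549). *Mondo* had signals of 7.98, 7.92 and 7.88 after pinching, 8.08, 7.90 and 8.01 after clean injury, and 8.59, 8.23 and 8.62 in untreated larvae, with changes of -0.55 and -0.48 (SE 0.12, limma adjusted p = 0.0202 and 0.0345). *InR*, the insulin receptor gene, was higher by 0.74 and 0.97 (SE 0.19, limma adjusted p = 0.0399 and 0.0124). The calls of *bigmax* were kept with any array left out. Those of *Mondo* and *InR* were each lost in at least 3 of the 9 such fits, including those without untreated replicate 1 (limma adjusted p = 0.0821 and 0.123 for *Mondo*, 0.133 and 0.0557 for *InR*) and without untreated replicate 3 (0.0926 and 0.135 for *Mondo*, 0.152 and 0.0611 for *InR*). *sug*, which encodes a zinc-finger factor of the sugar response, had changes of -0.996 and -0.70 that did not pass the test (limma adjusted p = 0.0588 and 0.164).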

How the data were processed

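Labelled cRNA of whole larvae had been hybridized to 9 Affymetrix arrays, 3 per group. The values the authors deposited are log2 signals, 1 for each probe set on each array. Their methods name R without saying how signals were corrected, normalized and summarized, so the values were used as they stand. No detection calls were used, and the precision is limited by 3 arrays per group.

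Of 18952 probe sets, 183 controls were left out and 18769 entered the tests, dim ones included, using limma 3.58.1 in R 4.3.3 (lmFit, contrasts.fit, eBayes) with a mean per group over all 9 arrays, two-sided tests and Benjamini-Hochberg adjustment. The prior had 4.25 degrees of freedom. Further steps used pandas 2.3.3 on Python 3.11.15, and figures matplotlib 3.10.9. The fit was tested on simulated arrays for pinching against untreated larvae over the 18769 probe sets, with 200 changed. It recovered 48% of those changed 1.5-fold, 80% at 2-fold, 98% at 4-fold and 100% at 10-fold, with 6 false calls among 169. The simulated noise was drawn independently for each probe set and array. Deviations shared between real arrays were not simulated, so the share of false calls in the real data cannot be read from these figures. In the real data 790 probe sets were called higher and 937 lower after pinching, more than the 200 changed here. The Benjamini-Hochberg cutoff depends on how many change, so the shares recovered need not hold in the real data either.

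The annotation gives 13647 probe sets a single gene and 402 more than 1, and 4720 are unnamed here. Of several probe sets of a gene, the brightest over the 9 arrays was to be taken, but no member had more than 1. For names and neighbours, the RefSeq table of Release 6 plus ISO1 MT was used. No source used here states the build of the array design, so no coordinates are printed.

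The members, the lists of other digestive enzymes, midgut genes, enteroendocrine peptides, nutrient regulators and tissue markers, and the tests were chosen with earlier results of these data known. Values on each array are given for members called in a comparison with untreated larvae, at most 6 per class, and otherwise for the member of a class with the smallest p. Of each other list, up to 4 called genes with the smallest p were named. *Jon25Biii*, *LManIV* and further genes were added after their values were seen.

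The groups share replicate numbers. After subtracting each group mean, arrays of equal number correlated in all 9 pairs (r from 0.189 to 0.548), while over the 40 members alone r ran from -0.188 to 0.895. For arrays of unequal number, r ran from -0.463 to 0.16 over all probe sets. Over the members it ran from -0.786 to 0.459, so there the ranges for equal and unequal numbers overlapped. By the correlation over all probe sets, the numbers were taken to pair the arrays. This is inferred from the values, since the labels do not state it. The main fit has no block, and blocked values are given where they change a call.

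Alternatives were quantile normalization, centring on the array median, omission of the 40% dimmest probe sets or of those open to cross-hybridization, fits of just the 6 arrays in question, the replicate block, the methods' t-test, a robust prior with an intensity trend, averaging the probe sets of a gene, a 2-fold minimum, and leaving out each array. For the called genes of the other lists, the block and the fits without each array were added after their values were seen.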

Additional observations from a re-analysis of the deposited data

How the results depend on the processing

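The counts of digestive enzyme genes depended most on the test. With the methods' t-test and Benjamini-Hochberg adjustment, 0 genes were called higher and 0 lower in each comparison with untreated larvae. At an unadjusted p under 0.05 in that t-test, 3 were higher and 9 lower after pinching, and 4 higher and 12 lower after clean injury. Of all 18769 probe sets, 1633 were higher and 1715 lower at that threshold after pinching, and 1969 and 2299 after clean injury. With the adjustment, the t-test called 25 probe sets higher and 14 lower after pinching over the whole array, and 85 and 36 after clean injury. A 2-fold minimum left 0 higher and 5 lower after pinching, and 1 higher and 5 lower after clean injury. How many of all probe sets passed this minimum was not counted. With 1 array left out, the genes called higher ranged from 1 to 4 in each comparison, with 4 without untreated replicate 2, where *alphaTry* and *Jon65Ai* were called higher in both. The genes called lower ranged from 6 to 10 after pinching and from 6 to 11 after clean injury. Over all 18769 probe sets, these fits called 418 to 974 higher and 373 to 1008 lower after pinching. After clean injury they called 441 to 1266 higher and 327 to 1225 lower. The replicate block gave 3 higher and 11 lower in each comparison. Over all probe sets, the block called 1426 higher and 1645 lower after pinching, against 790 and 937 without it. After clean injury it called 1892 higher and 1610 lower, against 980 and 926. The block changed no other call of a member than those given with the genes. With only the 6 arrays compared, the calls of *LManI* and *Mal-A7* after pinching and of *alphaTry* after clean injury were lost, and *LManI* and *LManIV* were called lower after clean injury. Of the 23 calls, 14 held in all 9 fits with an array left out, those of *LManV*, *LManVI*, *lambdaTry*, *kappaTry*, *thetaTry*, *Mal-A8* and *Jon74E*. No call changed sign under any alternative run, and between pinching and clean injury 0 genes were called under each of them. The median change of the 40 genes stayed within -0.08 to -0.002 after pinching and within -0.12 to -0.04 after clean injury with an array left out. Signals below the array medians, as for *Mal-A7*, *LysP* and *LysX*, or around them, as for *LManIV*, limit what can be read from those genes.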
